A study of Mus musculus with 9 samples.

Results

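YAP (gene Yap1) and TAZ (gene Wwtr1) are transcriptional coactivators, and their messages were followed here together with 2 of their DNA-binding partners and 6 genes commonly used as readouts of their activity. The 10 genes were chosen by name, with earlier results of these data known: Yap1, Wwtr1, Tead1, Tead2, Ctgf, Cyr61, Ankrd1, Amotl2, Lats2 and Arhgef17. They are 10 of the 23309 gene symbols in the files. All 10 were present in every library, and all 10 passed the filter on low values that left 10497 genes for testing.

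The data are bulk RNA sequencing of D2.0R cells, a mouse mammary tumour line that was derived from hyperplastic alveolar nodules and is used as a model of tumour dormancy. Cells were grown on basement membrane extract (BME) for 1 day or 5 days, or for 5 days on BME to which collagen had been added (BME + COL, type I collagen), with 3 libraries (replicates a, b and c) in each of the 3 groups. All groups carried the same unmodified line and received no drug, and the only differences named in the labels were the matrix and the time. In the study's model, cells on BME stay quiescent and cells on BME + COL proliferate. The comparison of the matrices at day 5 therefore addresses dormant against dividing cells of a line. The added collagen and the dividing state differ together there and cannot be told apart. The comparison of the days on BME addresses the time course of dormancy.

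YAP and TAZ cannot bind DNA themselves. In the nucleus they join the TEAD factors on enhancers and promoters, whereas the Hippo kinases MST1/2 and LATS1/2 phosphorylate them and hold them in the cytoplasm for degradation. Stiff or adhesive matrix, cell spreading and actin tension keep them nuclear in mammary epithelial cells. Several targets feed back on the pathway, among them the kinase Lats2 and the angiomotin Amotl2, which restrain YAP and TAZ. This regulation acts mainly on the proteins, whose location and phosphorylation RNA levels do not show.

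Values are FPKM (fragments per kilobase of transcript, scaled to the number of mapped fragments), summed over the transcripts of a gene. The libraries held 7.21 to 9.37 gigabases of aligned sequence on annotated transcripts. BME day 5 replicate b stood apart: the median log2 deviation of its genes from their means over the 9 libraries was -0.268, against -0.041 to 0.091 in the other 8 libraries. Of the epithelial markers, Krt8 (395 to 1324 FPKM) and Krt18 (362 to 1088 FPKM) were high. Epcam reached at most 1.59 FPKM, Krt19 at most 0.0632 and Krt5 at most 0.0190. The 8 epithelial markers summed to 1460 to 1630 FPKM in the BME day 1 libraries, 785 to 1170 in those of BME day 5 and 2360 to 2470 in those of BME + COL. Nearly all of this sum was Krt8 and Krt18. From BME day 1 to BME + COL, mean FPKM went from 34.25 to 31.13 for Cdh1 and from 23.27 to 16.98 for Krt14. Epcam went from 1.288 to 0.8209. Krt7 was higher on BME + COL (6.797 and 10.65), as were Krt19 and Krt5 at their low levels. In limma, none of Cdh1, Krt14 and Krt7 reached an adjusted p under 0.05 there. Between the matrices at day 5, Cdh1 (log2 change -0.92, adjusted p = 1.00e-05) and Krt7 (-1.95, adjusted p = 0.00163) were lower on BME. Krt8 and Krt18 were lower too (-1.41 and -1.19), while Krt14 did not pass (-0.15, adjusted p = 0.605). From day 1 to day 5 on BME, Cdh1 was lower by a log2 change of -1.05 (adjusted p = 0.000189). Krt7, Krt8 and Krt18 were lower over that time as well, and Krt14 did not pass. Of the markers of other cells, all 4 endothelial genes, 4 of 5 haematopoietic genes (the exception was Cd68), 3 of 5 fibroblast genes (the exceptions were Col1a1 and Pdgfra) and 6 of 7 muscle genes (the exception was Acta2) stayed under 1 FPKM in every library. Lum, Emr1, Cd3e, Actc1 and Myog were listed at 0 throughout. The haematopoietic list, nearly all of it Cd68, summed to 2.60 to 3.48 FPKM in the BME libraries and 1.03 to 1.18 in those of BME + COL. The epithelial, haematopoietic, fibroblast and muscle sums differed between the groups, and their part in the results was not tested.

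The promoter windows of targets and regulators were read for a motif of the pathway. The sequence GGAATG, the core that TEAD factors recognise, was searched on both strands in the 250 nt before every annotated transcript start. It was found in 7 of the 12 start windows of 9 of the genes, against 11.6% of all 25831 windows of the same length. The Wwtr1 windows overlap and share the same match. By gene it was found in 6 of these 9, for which no share over all genes was computed. An AP-1 site (TGANTCA) occurred in 0 of the 12 windows and in 6.2% of all windows, and a CArG box, the serum response factor site, in 0 of 12 and in 1.35% of all. Neither motif therefore overlapped a GGAATG match. These are matches of letters and not measured binding.

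The windows of 3 targets that held the core are printed because their messages carry the comparisons that follow. They run 5′ to 3′ on the strand of the gene in mm9, end at the base before the annotated start, and carry the core in capitals (CATTCC where it lies on the opposite strand).
Cyr61, chr3:145312950-145313199, minus strand: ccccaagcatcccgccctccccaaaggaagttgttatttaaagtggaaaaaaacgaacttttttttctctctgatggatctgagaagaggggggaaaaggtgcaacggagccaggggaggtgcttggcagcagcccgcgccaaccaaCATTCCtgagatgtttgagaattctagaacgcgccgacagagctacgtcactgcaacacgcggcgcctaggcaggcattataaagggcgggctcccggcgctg
Ankrd1, chr19:36194335-36194584, minus strand: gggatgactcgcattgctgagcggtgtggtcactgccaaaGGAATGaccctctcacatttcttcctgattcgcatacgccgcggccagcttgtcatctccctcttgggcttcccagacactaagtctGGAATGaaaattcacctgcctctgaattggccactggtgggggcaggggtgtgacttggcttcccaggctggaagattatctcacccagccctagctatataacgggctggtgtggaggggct
Amotl2, chr9:102619884-102620133, plus strand: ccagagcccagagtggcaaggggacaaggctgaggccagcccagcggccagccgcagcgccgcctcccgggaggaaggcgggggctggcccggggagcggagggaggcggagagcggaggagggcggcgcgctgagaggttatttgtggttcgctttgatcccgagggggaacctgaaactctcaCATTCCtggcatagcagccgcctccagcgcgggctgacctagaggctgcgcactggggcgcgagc

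Positions are those of the leftmost base of each match, counted back from the start. Ankrd1 held 2 copies, at -210 and -123. Cyr61 held 1 copy at -103 and Amotl2 1 copy at -65. Among the regulators, Yap1 held 1 copy at -141, the 2 Wwtr1 starts shared 1 copy (at -136 and -170 of their own windows), and the upstream Tead1 start held 1 at -198. The downstream Tead1 start and the windows of Tead2, Lats2 and Arhgef17 held none.

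**Figure D1:**
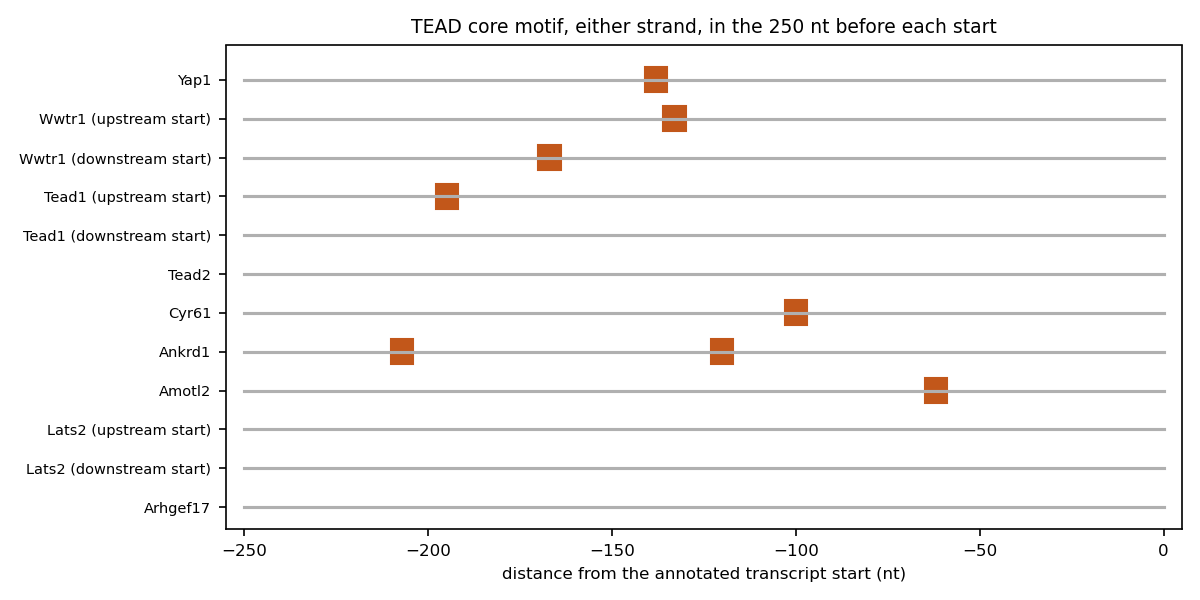
Positions of the TEAD core GGAATG on either strand in the 250 nt before each of the 12 annotated starts of 9 genes, with the distance from the start in nt on the x axis and a row for each start. Orange boxes are matches and grey lines the windows. Ankrd1 has 2 boxes, and 5 windows have none.

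Between the matrices at day 5, the targets Ankrd1, Amotl2, Cyr61 and Lats2 and the factor Tead1 were lower on BME than on BME + COL, whereas Wwtr1 and Tead2 were higher on BME. In all, 6 of the 10 genes were lower and 2 were higher on BME at an adjusted p under 0.05 in limma. Over all tested genes 45.3% were lower and 30.3% higher, so calls in either direction were frequent. The median log2 change of the 10 genes was -0.58, against -0.18 over all tested genes. In bulk RNA, fewer cells that express a gene and less of its RNA per cell cannot be told apart.

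The coactivator genes moved little. Yap1 (chr9:7932001-8004596, minus strand) measured 25.4, 24.8 and 28.4 FPKM on BME at day 1, 27.1, 23.3 and 27.5 on BME at day 5, and 30.0, 30.6 and 29.2 on BME + COL. Its 3 BME + COL libraries lay just above all 6 BME libraries. The log2 change on BME against BME + COL was -0.21 (SE 0.09, 95% interval -0.41 to -0.01, adjusted p = 0.0535), which missed the threshold, and its sign turned to 0.14 under TPM (adjusted p = 0.0636) and under quantile scaling, where it passed as higher on BME (adjusted p = 0.0255). It passed as lower on BME under median-ratio scaling (-0.12, adjusted p = 0.0476) and without replicate c of BME at day 1 (-0.21, adjusted p = 0.0413). The same held without replicate a (-0.24, adjusted p = 0.0493) or c (-0.25, adjusted p = 0.0422) of BME at day 5. Without replicate b of BME at day 5, which stood apart, the change shrank to -0.13 (adjusted p = 0.0799). Yap1 thus sat at the threshold. Wwtr1 (chr3:57259566-57379832, minus strand) measured 34.7, 33.5 and 40.2 FPKM on BME at day 1, 40.5, 38.9 and 38.2 on BME at day 5, and 31.8, 32.5 and 29.9 on BME + COL. It was the reverse of Yap1, with every BME library above every BME + COL library. At day 5 it was higher on BME by 0.32 on the log2 scale (SE 0.09, adjusted p = 0.00706), or 1.25-fold.

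The ratio of Yap1 to Wwtr1 FPKM, which a factor common to all genes of a library cannot move, was 0.705 to 0.739 in the BME day 1 libraries, 0.599 to 0.720 in those of BME day 5 and 0.939 to 0.975 in those of BME + COL. The 2 coactivator messages were thus close to equal per length on BME + COL, and Wwtr1 exceeded Yap1 in all 9 libraries. These ratios were read from the same libraries as the fits and were not tested.

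The TEAD factors changed in opposite directions. Tead1 (chr7:119822834-120050319, plus strand) measured 10.4, 11.0 and 10.8 FPKM on BME at day 1, 10.1, 6.91 and 8.58 on BME at day 5, and 19.9, 20.4 and 16.97 on BME + COL. Its BME + COL libraries lay above both BME groups, and its day 5 libraries on BME just under those of day 1. Tead1 was lower on BME at day 5 by a log2 change of -1.16 (SE 0.13, adjusted p = 3.17e-05), and it was 2.24-fold higher on BME + COL as a ratio of means. Tead2 (chr7:52471123-52488989, plus strand) measured 31.6, 30.3 and 34.4 FPKM on BME at day 1, 34.4, 29.6 and 34.1 on BME at day 5, and 24.1, 24.0 and 24.3 on BME + COL. It was higher on BME at day 5, with a log2 change of 0.43 (SE 0.08, adjusted p = 0.00106), and again no library of the groups overlapped. The ratio of Tead1 to Tead2 was accordingly 0.313 to 0.364 in the BME day 1 libraries, 0.234 to 0.294 in those of BME day 5 and 0.698 to 0.847 in those of BME + COL.

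**Figure D2:**
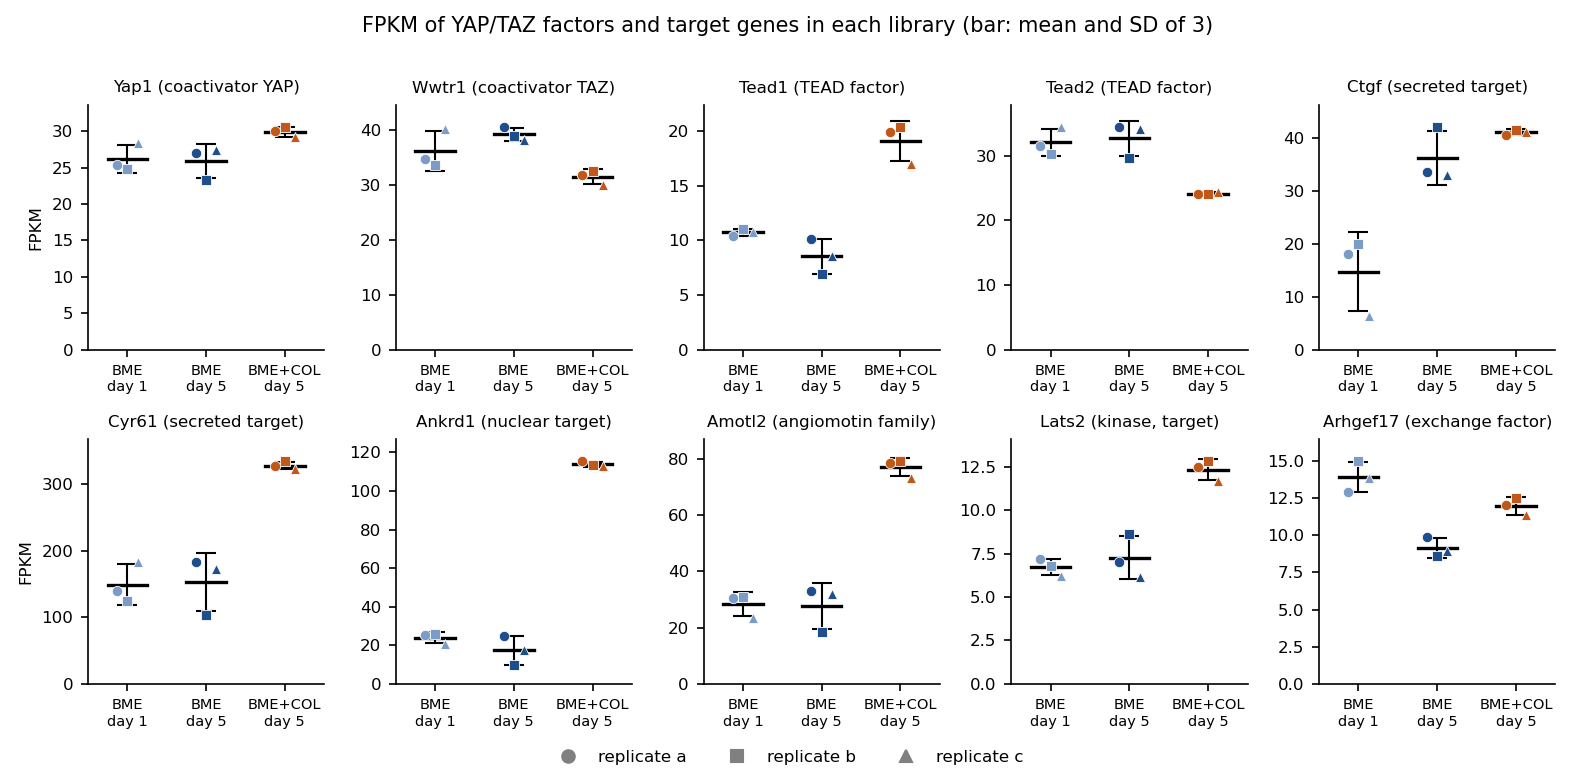
FPKM of the 10 genes in each of the 9 libraries, with a panel for each gene, the 3 groups on the x axis and FPKM from 0 on the y axis. Symbols are replicates a, b and c, bars are means, and whiskers are the SD of 3 libraries. The BME + COL libraries of Ankrd1 (113 to 115 FPKM), Cyr61, Amotl2, Lats2 and Tead1 lie above every BME library, those of Wwtr1 and Tead2 below, and Ctgf is low on BME at day 1.

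Of the 6 targets among the 10 genes, those with the largest differences were the nuclear protein Ankrd1, the angiomotin Amotl2 and the secreted matrix protein Cyr61. Ankrd1, an ankyrin repeat protein known as a stretch-responsive cofactor of muscle (chr19:36186455-36194334, minus strand), measured 25.6, 25.9 and 20.5 FPKM on BME at day 1, 24.9, 9.74 and 17.4 on BME at day 5, and 115, 113 and 113 on BME + COL. The highest BME library was far under the lowest BME + COL library. Ankrd1 was lower on BME at day 5 by a log2 change of -2.81 (SE 0.27, adjusted p = 1.42e-05), or 6.57-fold higher on BME + COL as a ratio of means. Other muscle genes did not accompany it in level, since 6 of the 7 muscle markers were under 1 FPKM, but Acta2 alone took the list from 0.298 to 0.670 FPKM on BME at day 5 to 3.30 to 3.58 on BME + COL. The part of Acta2-expressing cells in the Ankrd1 result was not tested.

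Amotl2, which binds YAP and holds it at junctions and in the cytoplasm (chr9:102620134-102635747, plus strand), measured 30.7, 30.9 and 23.6 FPKM on BME at day 1, 32.8, 18.3 and 32.04 on BME at day 5, and 78.5, 79.0 and 73.2 on BME + COL. It was lower on BME at day 5 with a log2 change of -1.51 (SE 0.21, adjusted p = 0.000122). Cyr61, a secreted integrin ligand of the CCN family (chr3:145309935-145312949, minus strand), measured 139, 125 and 183 FPKM on BME at day 1, 184, 103 and 173 on BME at day 5, and 327, 334 and 323 on BME + COL. The BME groups overlapped each other in both genes and neither overlapped with BME + COL. Cyr61 was lower on BME at day 5 with a log2 change of -1.14 (SE 0.21, adjusted p = 0.000891).

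Lats2, the kinase that phosphorylates YAP and TAZ (chr14:58308499-58364960, minus strand), measured 7.20, 6.78 and 6.24 FPKM on BME at day 1, 7.003, 8.62 and 6.17 on BME at day 5, and 12.5, 12.8 and 11.7 on BME + COL. It was lower on BME at day 5 with a log2 change of -0.77 (SE 0.12, adjusted p = 0.000228). The replicate that stood apart, b of BME at day 5, was the lowest of all 9 libraries for Tead1, Cyr61, Ankrd1 and Amotl2. It was also the lowest for Yap1 and Arhgef17, but the highest BME library for Lats2. Without it the log2 changes were -1.02 for Tead1, -0.88 for Cyr61, -2.45 for Ankrd1, -1.24 for Amotl2 and -0.90 for Lats2, and all 5 kept an adjusted p under 0.05.

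Arhgef17, a guanine nucleotide exchange factor (chr7:108018260-108080675, minus strand), measured 12.9, 14.98 and 13.9 FPKM on BME at day 1, 9.89, 8.58 and 8.97 on BME at day 5, and 12.1, 12.5 and 11.4 on BME + COL. Its libraries on BME at day 5 lay under both other groups without overlap. Against BME + COL its log2 change was -0.39 (SE 0.08, adjusted p = 0.00203), a call that TPM scaling ended (-0.045, adjusted p = 0.639). The microRNA gene Mir3102 lies within Arhgef17 on the same strand, at a mean of 2.56 FPKM.

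Between the matrices Ctgf did not pass the test, which Cyr61, its relative in the CCN family, did. Ctgf, a secreted matrix protein and a standard YAP target (chr10:24315248-24318488, plus strand), measured 18.1, 19.9 and 6.27 FPKM on BME at day 1, 33.5, 42.1 and 33.0 on BME at day 5, and 40.7, 41.6 and 41.3 on BME + COL. The groups of day 5 overlapped, since replicate b on BME was the highest of all 9 libraries. The log2 change between the matrices was -0.19 (95% interval -1.003 to 0.615, adjusted p = 0.638), with the opposite sign under TPM (0.15) and quantile scaling (0.19). The shared estimate of the spread holds replicate c of BME at day 1 (6.27 FPKM), which is outside this comparison, and without that library the change was the same with an adjusted p of 0.118. The ratio of Cyr61 to Ctgf FPKM was 6.25 to 29.2 in the BME day 1 libraries, 2.45 to 5.48 in those of BME day 5 and 7.82 to 8.03 in those of BME + COL.

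The scale of the values bears on small changes. The sum of FPKM over all transcripts was higher in each BME + COL library than in any BME library. With each library rescaled to a common sum (TPM), the median change of all genes between the matrices at day 5 moved from -0.18 to 0.16, and the called genes from 3179 higher and 4756 lower to 4858 higher and 3327 lower. Ankrd1, Amotl2, Tead1, Cyr61 and Lats2 stayed lower on BME, and Wwtr1 and Tead2 higher, with an adjusted p under 0.05 under TPM, median-ratio and quantile scaling. The change of Yap1 (-0.21) lay close to the median of all genes.

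**Figure D3:**
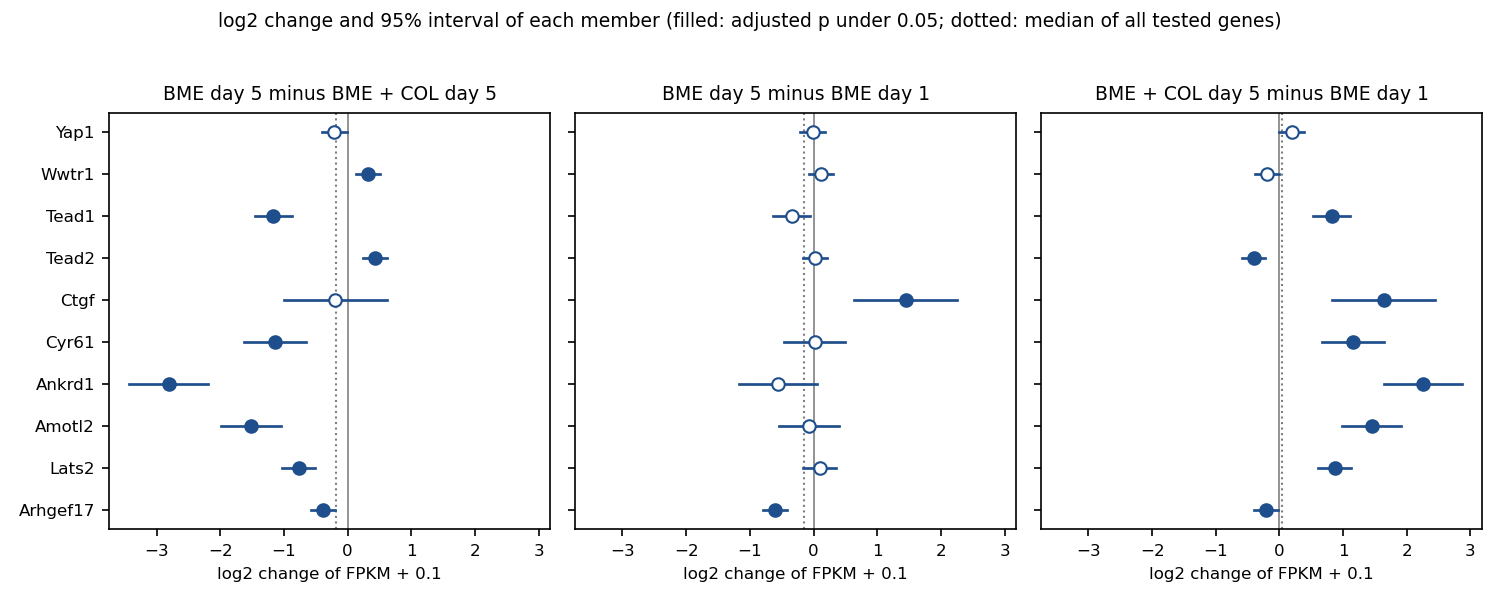
Log2 change (x axis, of FPKM + 0.1) and 95% interval of each of the 10 genes in the 3 comparisons. Filled points have an adjusted p under 0.05, and the dotted line is the median of all 10497 tested genes. At day 5, 6 genes lie below 0 with filled points and 2 above it. From day 1 to day 5 on BME, Ctgf and Arhgef17 have filled points. The open points of Yap1 and Ctgf in the first panel change sign under TPM or quantile scaling, and those of Yap1 and Amotl2 in the second under TPM, median-ratio or quantile scaling.

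From day 1 to day 5 on BME, few of these genes passed the test. Ctgf was higher at day 5 and Arhgef17 lower. The other 8 genes did not pass, which does not show that they were unchanged. Over all tested genes 9.09% were higher and 22.2% lower at day 5, so for 10 genes these counts lay near the background. The median log2 change was 0.002 for the 10 genes and -0.15 for all tested genes. The split of calls over all genes depended on the scale, with 954 higher and 2327 lower as deposited, 1534 and 2236 under TPM, 1768 and 2127 under median-ratio scaling and 1903 and 2050 under quantile scaling. All 3 comparisons share libraries with each other, and the values of each are given for what it compares.

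Ctgf was higher at day 5 by 1.45 on the log2 scale (SE 0.36, adjusted p = 0.0178), with no overlap between the days. Replicate c of BME at day 1, at 6.27 FPKM, was less than the 18.1 and 19.9 FPKM of the other replicates, and without it the change was 0.92 (adjusted p = 0.00247). A fit on only the 6 libraries of the comparison, which left fewer samples to estimate the spread, gave the same change with an adjusted p of 0.0737. Arhgef17 was lower at day 5 by a log2 change of -0.60 (SE 0.08, adjusted p = 0.00171).

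The changes that did not pass were -0.34 for Tead1 (95% interval -0.63 to -0.05, adjusted p = 0.0679) and -0.56 for Ankrd1 (95% interval -1.17 to 0.06, adjusted p = 0.136). Both values leaned on the replicate that stood apart: without it both were -0.20, whereas without replicate a of BME at day 5 they were -0.47 and -0.87 and passed (adjusted p = 0.0172 and 0.0184). Cyr61 changed by 0.02 (95% interval -0.47 to 0.50) and Amotl2 by -0.07 (95% interval -0.54 to 0.40, positive under TPM, median-ratio and quantile scaling). Lats2 changed by 0.10, Tead2 by 0.02, Wwtr1 by 0.12 and Yap1 by -0.01, the last with the opposite sign under the same 3 scalings. The 95% intervals were narrow for Yap1 (-0.21 to 0.18), Wwtr1 (-0.07 to 0.31) and Tead2 (-0.16 to 0.21). Wwtr1 passed the test under median-ratio scaling (0.23) and quantile scaling (0.28), and Tead2 (0.19) and Yap1 (0.16, adjusted p = 0.0333) under quantile scaling.

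Against BME at day 1, cells on BME + COL at day 5 had 6 genes higher and 2 lower, where over all tested genes 34.2% were higher and 31.8% lower. Under TPM the calls over all genes went from 3588 higher and 3343 lower to 2638 and 4870. Matrix and time both differ in this comparison and cannot be told apart. Ankrd1 was higher by 2.25 (SE 0.27, adjusted p = 9.13e-05), Amotl2 by 1.45 (SE 0.21, adjusted p = 0.000254) and Cyr61 by 1.16 (SE 0.21, adjusted p = 0.00115). Ctgf was higher by 1.64 (SE 0.36, adjusted p = 0.00298), and by 1.11 without replicate c of BME at day 1. Lats2 was higher by 0.86 and Tead1 by 0.82 (adjusted p = 0.000170 and 0.000441).

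Tead2 was lower on BME + COL than at day 1, by a log2 change of -0.41 (SE 0.08, adjusted p = 0.00203). The call of Arhgef17 in this comparison (-0.21, adjusted p = 0.0457) sat at the threshold. It was lost without any of 6 single libraries (replicates b and c of BME at day 1, replicate c of BME at day 5, and each BME + COL replicate, log2 change -0.25 to -0.16), with replicates as a block (adjusted p = 0.0737), with no filter, with the most abundant transcript alone and without the intensity trend (adjusted p = 0.0563, 0.0502 and 0.0548). Wwtr1 (-0.20, adjusted p = 0.0647) and Yap1 (0.20, adjusted p = 0.0747) did not pass. Wwtr1 passed as lower on BME + COL under TPM (-0.42, adjusted p = 0.00240), quantile scaling (-0.40, adjusted p = 0.00201) and median-ratio scaling (-0.18, adjusted p = 0.0479), and with only the 6 libraries compared (adjusted p = 0.0451). Yap1 passed as higher under median-ratio scaling (0.21, adjusted p = 0.00271) and with only the 6 libraries (adjusted p = 0.0187), but was -0.029 under TPM. Without replicate b of BME at day 5, which stood apart and enters this comparison only through the shared estimate of the spread, both passed (adjusted p = 0.0321 and 0.0114), and the counts were 7 higher and 3 lower. Yap1 also passed without replicate c of BME at day 1 (0.25, adjusted p = 0.0364) and Wwtr1 without its replicate b (-0.25, adjusted p = 0.0432).

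The order of the levels differed between the groups. Cyr61 was the most abundant of the 10 messages per length in all 3 groups, above 96.6%, 97.1% and 98.2% of the tested genes in the BME day 1, BME day 5 and BME + COL groups. Its range stayed clear of the next gene in each group. On BME at day 1 the next places were Wwtr1, Tead2, Amotl2, Yap1 and Ankrd1 (means of 36.2, 32.1, 28.4, 26.2 and 24.0 FPKM), and neighbours in this run overlapped. On BME at day 5 they were Wwtr1, Ctgf, Tead2, Amotl2 and Yap1 (39.2, 36.2, 32.7, 27.7 and 25.9 FPKM), again with overlaps, so Ctgf stood higher in the order than at day 1 (place 7, 14.8 FPKM) on BME too. On BME + COL, Ankrd1 (114 ± 1.26 FPKM, SD, n = 3), Amotl2 (76.9 ± 3.22) and Ctgf (41.2 ± 0.484) took the places after Cyr61 (328 ± 5.81), each clear of the next, and Wwtr1 and Yap1 (31.4 ± 1.36 and 29.9 ± 0.710) overlapped. Lats2 had the lowest mean on BME in both groups (6.74 ± 0.481 and 7.26 ± 1.25). It was clear of the next gene at day 1 but overlapped Tead1 and Arhgef17 at day 5. Arhgef17 and Lats2 overlapped at the bottom on BME + COL. The ratio of Ankrd1 to Yap1 FPKM was 0.723 to 1.05 in the BME day 1 libraries, 0.418 to 0.921 in those of BME day 5 and 3.71 to 3.88 in those of BME + COL.

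The files also resolve the annotated transcripts of Yap1 and Tead1, whose forms differ by short coding exons. The Yap1 exon of 48 nt is exon 6 of the longer form, is coding in GENCODE vM1, and lies in the part that encodes the leucine zipper of the transactivation domain. Its 48 nt, like the 63 and 12 nt of the Tead1 exons, are a multiple of 3 and keep the reading frame. They are printed, in capitals, between the adjoining 15 nt of the neighbouring exons as spliced in the message, because they are what tells the forms apart.
Yap1 exon 6, chr9:7950492-7950539, minus strand: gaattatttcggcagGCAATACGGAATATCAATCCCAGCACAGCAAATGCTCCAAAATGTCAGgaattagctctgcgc
Tead1 exon of 63 nt, chr7:119985402-119985464, plus strand: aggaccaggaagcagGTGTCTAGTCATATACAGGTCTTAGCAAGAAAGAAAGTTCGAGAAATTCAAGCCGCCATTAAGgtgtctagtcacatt
Tead1 exon of 12 nt, chr7:119999567-119999578, plus strand: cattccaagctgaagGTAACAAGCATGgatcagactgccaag

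The Yap1 form without exon 6 measured 12.4, 12.3 and 13.1 FPKM on BME at day 1, 11.95, 8.74 and 10.9 on BME at day 5, and 16.1, 15.4 and 16.3 on BME + COL. The form with exon 6 measured 12.9, 12.5 and 15.2, then 15.1, 14.6 and 16.6, and then 14.0, 15.2 and 12.9 FPKM. The 3 groups of the form without it did not overlap, whereas those of the form with it did. In a fit of each transcript on its own over 12420 transcripts, which was added after the data had been seen, the form without exon 6 was lower on BME at day 5 than on BME + COL (-0.60, SE 0.11, adjusted p = 0.000843). The form with exon 6 was not (0.14, SE 0.10, adjusted p = 0.239). This fit, also used for the Tead1 forms below, was run on FPKM as deposited alone. The sign of the whole-gene Yap1 change turned with the scale, and which form passes on another scale was not tested.

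As a share of Yap1 FPKM, the form with exon 6 made up 51.0%, 50.5% and 53.7% on BME at day 1, 55.8%, 62.5% and 60.5% on BME at day 5, and 46.5%, 49.6% and 44.2% on BME + COL. The shares did not overlap between any of the groups, with BME at day 5 highest and BME + COL lowest. The difference was 12.8 percentage points between the matrices at day 5, 7.86 points from day 1 to day 5 on BME and -4.98 points between BME + COL and BME at day 1. Each of these 3 comparisons gave p = 0.1 in a two-sided exact permutation test (0.1 after Benjamini-Hochberg adjustment), which is the smallest value that 3 against 3 libraries allow. The split between forms is an estimate by Cufflinks, whose own 95% interval had a half-width of 5.9% to 7.2% of the value for the form without the exon and 5.9% to 6.4% for the form with it.

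The 3 Tead1 forms all stood higher on BME + COL. The most abundant form, which lacks both exons and starts later, measured 5.47, 6.14 and 5.52 FPKM on BME at day 1, 5.90, 4.40 and 6.16 on BME at day 5, and 12.1, 11.7 and 9.38 on BME + COL. Its log2 change at day 5 was -1.002 on BME against BME + COL (SE 0.14, adjusted p = 0.000217). The form with both exons changed by -1.19 (adjusted p = 0.000807) and the form with the exon of 12 nt only by -1.94 (adjusted p = 0.000666). The latter form, at 0.315 to 0.924 FPKM on BME at day 5 and 2.10 to 3.31 on BME + COL, was also lower at day 5 than at day 1 on BME (-1.18, adjusted p = 0.0336), and its interval was the widest, with a half-width of 7.9% to 22%. Wwtr1 and Lats2 each came almost wholly from a single form, with at least 95.6% of the FPKM in every library.

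**Figure D4:**
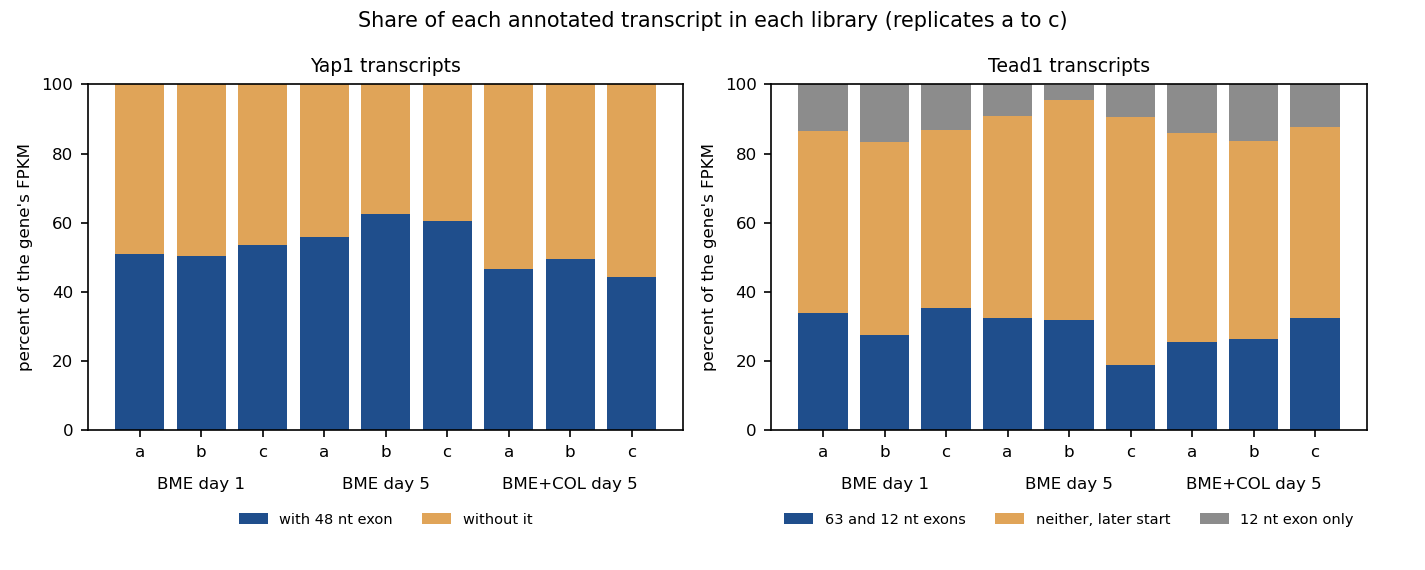
Percent of the FPKM of Yap1 (left) and Tead1 (right) that each annotated transcript contributed in the 9 libraries, stacked to 100%. The dark part of Yap1, the form with the exon of 48 nt, is 55.8% to 62.5% on BME at day 5 and 44.2% to 49.6% on BME + COL.

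A list of 37 genes of the Hippo pathway, from its upstream adhesion proteins to its nuclear factors, gave the surroundings of these genes. It includes 6 of the 10, and 34 passed the filter. At day 5, 17 of the 34 were lower on BME, 8 were higher and 9 did not pass, with a median change of -0.25, against 45.3% lower, 30.3% higher and -0.18 over all genes. Without the 6, the counts were 14 lower and 6 higher of 28. These shares lay near the background, and under TPM the 34 genes split into 13 lower and 14 higher.

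Among the pathway genes outside the 10, the largest falls on BME at day 5 were in Vgll3, a TEAD cofactor that competes with YAP, and in Wwc1 (KIBRA), an upstream activator of the kinases. Vgll3 measured 0.802, 0.425 and 0.548 FPKM on BME at day 5 and 2.33, 2.15 and 2.00 on BME + COL (log2 change -1.74, adjusted p = 0.000105). Wwc1 measured 8.27, 4.29 and 6.92 and then 18.9, 19.9 and 18.3 FPKM (-1.59, adjusted p = 5.79e-05). The largest rises were in Wtip, a LIM protein that binds LATS kinases (2.47, 4.05 and 2.89 against 0.636, 0.614 and 0.616 FPKM, log2 change 2.13, adjusted p = 2.93e-05), and in Fat4, a giant cadherin (4.25, 4.58 and 4.15 against 2.11, 2.14 and 1.596 FPKM, log2 change 1.123, adjusted p = 3.72e-05). Pathway genes thus moved in both directions.

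Of the other TEAD factors, Tead4 went with Tead1 and Tead3 did not pass. Tead4 measured 9.43, 8.30 and 9.71 FPKM on BME at day 1, 7.14, 3.47 and 5.83 on BME at day 5, and 13.6, 14.0 and 13.1 on BME + COL. It was lower on BME at day 5 than on BME + COL (-1.35, SE 0.21, adjusted p = 0.000287) and than at day 1 (-0.79, adjusted p = 0.0235). The call against day 1 was lost with only the 6 libraries compared (adjusted p = 0.0877) and without replicate a, b or c of BME at day 1 (adjusted p = 0.0732, 0.0564 and 0.0690), and without replicate b of BME at day 5 the change was -0.49 (adjusted p = 0.00591). Tead3 stayed at 2.07 to 2.91 FPKM in all 9 libraries and changed by 0.18 between the matrices (adjusted p = 0.175). Under TPM it was higher on BME by 0.53 (adjusted p = 0.0152), and under quantile scaling it was -0.00041.

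On BME, 3 of the 34 pathway genes were higher and 7 lower at day 5 than at day 1, with a median of -0.19, against 9.09% higher, 22.2% lower and -0.15 over all genes, so these shares lay near the background. The number lower hung on single libraries, at 1 without replicate a or b of BME at day 1, 3 without replicate c of BME at day 1, 4 without replicate b of BME + COL and 15 without replicate a of BME at day 5. Wtip (1.44, adjusted p = 0.00328) and Fat4 (0.63, adjusted p = 0.00833) had the largest rises, and Tead4 and the angiomotin Amotl1 (-0.73, adjusted p = 0.00204) the largest falls. Amotl1 measured 40.4, 41.9 and 43.6 FPKM at day 1, 29.0, 21.6 and 25.4 at day 5 on BME, and 40.8, 43.7 and 39.8 on BME + COL. Against BME at day 1, cells on BME + COL had 10 of the 34 pathway genes higher and 7 lower, against 34.2% and 31.8% over all genes. Outside the 10 genes, Vgll3 (1.24, adjusted p = 0.00127) and the LIM protein Ajuba (0.98, adjusted p = 3.96e-05) had the largest rises, and Frmd6 (-0.98, adjusted p = 2.69e-05) and Wtip (-0.69, adjusted p = 0.0260) the largest falls. The Wtip fall was lost and its sign turned under quantile scaling (0.03). It was also lost with a pseudocount of 1 FPKM (-0.36, adjusted p = 0.0636), without replicate a of BME at day 1 (-0.47, adjusted p = 0.0973) and without replicate a, b or c of BME + COL (adjusted p = 0.0561, 0.0613 and 0.0615).

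A list of 22 YAP/TAZ target genes, with 20 tested and 6 of the 10 among them, split as well. At day 5, 11 were lower on BME, 6 higher and 3 did not pass, with a median of -0.30 (7 lower and 7 higher under TPM), against 45.3% lower, 30.3% higher and -0.18 over all genes. Without the 6, the 14 other targets were 6 lower and 6 higher, with a median of -0.03. The coagulation starter F3 (tissue factor) measured 2.29, 0.927 and 1.18 FPKM on BME at day 5 and 6.82, 6.53 and 5.89 on BME + COL (log2 change -2.15, adjusted p = 0.000120). The kinase gene Nuak2 measured 0.559, 0.397 and 0.493 and then 1.83, 1.89 and 1.83 FPKM (-1.75, adjusted p = 2.26e-05). Both were lower on BME, as were Ankrd1, Amotl2 and Cyr61.

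Other targets on the same list went the opposite way. Gadd45a, a stress gene that slows the cell cycle, measured 12.3, 13.3 and 8.12 FPKM on BME at day 1, 21.1, 21.9 and 26.3 on BME at day 5, and 3.61, 3.03 and 2.82 on BME + COL. It was higher on BME at day 5 than on BME + COL by 2.84 (SE 0.18, adjusted p = 1.14e-06). Ccdc80, a secreted matrix protein, measured 11.9, 8.88 and 14.6, then 27.1, 25.5 and 36.4, and then 6.80, 6.48 and 6.97 FPKM, and was higher on BME by 2.10 (adjusted p = 6.55e-06). Neither gene had overlapping groups at day 5. Between the matrices, the sum of the fibroblast markers ran the same way as Ccdc80. It was 19.3 to 27.0 FPKM on BME at day 5 and 4.26 to 4.38 on BME + COL. Most of it was Pdgfra and nearly all the rest Col1a1, both higher on BME. Col1a2 went the other way at a low level, with 0.0231 to 0.0532 FPKM on BME at day 5 and 0.0984 to 0.111 on BME + COL. Lum was listed at 0 and Dcn at most 0.0116. The part of these markers in the results was not tested.

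**Figure D5:**
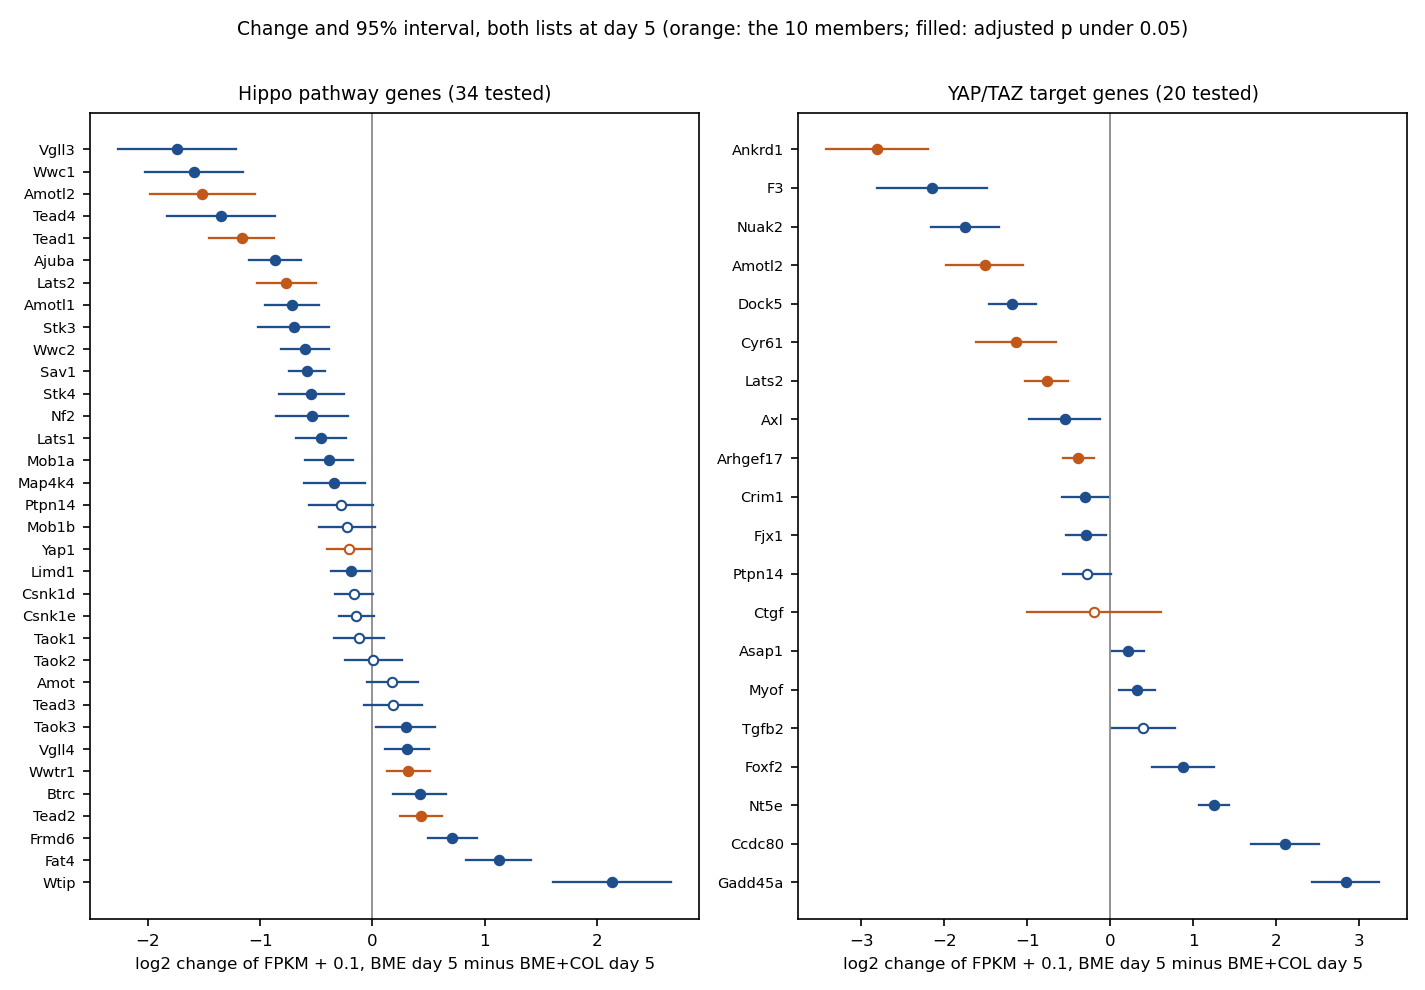
Log2 change (x axis, of FPKM + 0.1) and 95% interval between BME and BME + COL at day 5 for the 34 tested Hippo pathway genes (left) and the 20 tested target genes (right), sorted by size. Orange marks genes of the 10, and filled points have an adjusted p under 0.05. Each list runs from clear falls on BME (Vgll3, Ankrd1) to clear rises (Wtip, Gadd45a). Among the 10, the open points of Yap1 and Ctgf change sign under TPM and quantile scaling.

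On BME, 4 of the 20 targets were higher and 4 lower at day 5 than at day 1 (2 lower without replicate a or b of BME at day 1, 7 without replicate a of BME at day 5), against 9.09% higher and 22.2% lower over all genes. Ccdc80 (1.34, adjusted p = 0.00146) and Gadd45a (1.06, adjusted p = 0.00398) rose next to Ctgf, and Nuak2 (-1.23, adjusted p = 0.00231) and the phosphatase gene Ptpn14 (-0.46, adjusted p = 0.0256) fell. The Ptpn14 call was lost with only the 6 libraries compared (adjusted p = 0.0908) and without replicate a, b or c of BME at day 1 (adjusted p = 0.0630, 0.0732 and 0.0716), and without replicate b of BME at day 5 the change was -0.31 (adjusted p = 0.0179). Against BME at day 1, BME + COL had 10 of the 20 targets higher and 6 lower, against 34.2% and 31.8% over all genes. F3 (1.44, adjusted p = 0.00201) and Dock5 (0.79, adjusted p = 0.000520) were higher and Gadd45a (-1.78, adjusted p = 2.99e-05) and the ectonucleotidase Nt5e (-1.34, adjusted p = 1.59e-06) lower, apart from the 10 genes.

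Across the 9 libraries, which share 3 groups and differ in depth, Ankrd1 ran with Tead1 and Amotl2 (Pearson r = 0.98 each on log2 values) and Cyr61 with Yap1 (r = 0.96), whereas Wwtr1 ran against Ankrd1 (r = -0.83) and Tead2 against Lats2 (r = -0.97). Ctgf and Arhgef17 stood outside this pattern, with r to the other 9 between -0.57 and 0.63 for Ctgf and between -0.57 and 0.47 for Arhgef17. These are descriptions of 9 points in 3 groups and carry no test. They were computed on FPKM as deposited and on no other scale. The tested genes most like Cyr61 over the 9 libraries were Cdkal1 (r = 0.998), Ergic1 (0.996) and Alg3 (0.995), and 2054 genes had r of at least 0.9. Those most like Yap1 were Gid4, Csnk1d and Plod3 (0.982 each), among 521 such genes. Only 14 genes reached 0.9 with Ctgf, led by 9330151L19Rik (0.973), Krtap1-5 (0.966) and Bcl2l1 (0.964).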

How the data were processed

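RNA of D2.0R cells was sequenced in 9 libraries, 3 from each group, from a directional kit according to the study's methods. Among the tools in the submitters' processing notes are TopHat2 2.0.8, Trimmomatic 0.30, CASAVA 1.8.4 and Partek, listed with the builds mm9 and NCBIM37. The deposited tables hold FPKM per RefSeq transcript, which the authors obtained from Cufflinks together with a 95% interval and coverage, and the version and strand setting of Cufflinks are not given in the sources used here. The labels do not say whether the replicates came from separate cultures, and the study's methods call them biological.

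FPKM of 30563 transcripts were summed over symbols. Genes averaging 1 FPKM or more entered the test, by limma 3.58.1 (R 4.3.3) on log2(FPKM + 0.1), with an intensity trend, 3 group means over 9 libraries, 6 residual degrees of freedom, Benjamini-Hochberg adjustment over all 10497 genes and two-sided tests. A fold change on this scale understates the change of low genes. The files hold no counts, so no count model was used. The precision of a value within its library is that of Cufflinks' 95% interval, whose half-width was 1.1% to 7.4% for the 6 genes with 1 transcript. It does not cover the spread between replicates, which could be far wider (Ctgf, 6.27 to 19.9 FPKM on BME at day 1). For all 10 genes the spliced exons read from NCBIM37 hold a coding sequence of GENCODE vM1. Promoter windows and exons were read from that genome, and 1 promoter window and 1 marker gene are not reported here.

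The 10 genes and both lists were chosen with earlier results of these data known. From the lists, the 2 largest called rises and 2 largest called falls outside the 10 were named in each comparison, with Tead3 and Tead4 whatever their values. Likeness was the Pearson correlation over 9 libraries for Yap1, Ctgf and Cyr61. Alternatives covered scaling (TPM, median-ratio, quantile), the pseudocount (1 and 0.01), the filter (none, and 5 FPKM on average), the most abundant transcript alone, a fit of the 6 libraries compared, the trend left off, a replicate block and the omission of each library. The fit of single transcripts and the exact test of exon shares were added after seeing the data. The fits were tested on simulated data.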

Additional observations from a re-analysis of the deposited data

How the results depend on the processing

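Single libraries and the scale limit the small changes, and 3 libraries a group limit the exon shares. The counts of 10 genes between the matrices at day 5 stayed within 1.5 times of 2 higher and 6 lower under every alternative run. From day 1 to day 5 on BME, the number of the 10 higher (1) was 2 under median-ratio scaling, 4 under quantile scaling and 0 with only the 6 libraries compared, and the number lower ran from 1 to 3 as each library was left out. Between BME + COL and BME at day 1, the number lower (2) was 1 with no filter, with the most abundant transcript, without the intensity trend and with the replicate block, and 1 to 3 as each library was left out. The cause of these shifts was not tested. The block entered for replicate letters, whose same-letter libraries did not deviate together (r of -0.23 to 0.10), and in no other case moved a count of the 10.

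For the pathway list at day 5, 4 were higher with a minimum of 5 FPKM (fewer genes tested) and 14 under TPM. For the targets 7 were lower under each of these. From day 1 to day 5, 1 pathway gene was higher at the minimum of 5 FPKM and 7 under quantile scaling, and 1 was lower with only the 6 libraries. The number lower ran from 1 to 15 as each library was left out. For the targets it was 1 at the minimum of 5 FPKM and 2 with only the 6 libraries, ran from 2 to 7 as each library was left out, and 2 were higher with only the 6 libraries. Between BME + COL and BME at day 1, 2 pathway genes were lower at the minimum of 5 FPKM and 15 under TPM, and 6 targets were higher at the minimum of 5 FPKM.

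Signs turned mostly for changes that had not passed. Yap1 between the matrices at day 5 was 0.14 under TPM, 0.14 under quantile scaling (adjusted p = 0.0255, now called) and 0.14 for its most abundant transcript and the form with exon 6. Ctgf there was 0.15 under TPM and 0.19 under quantile scaling, and Tead3 -0.00041 under quantile scaling. From day 1 to day 5 on BME, Yap1 was 0.11 under TPM, 0.10 under median-ratio scaling, 0.16 under quantile scaling (adjusted p = 0.0333, now called) and 0.19 for the most abundant transcript and the form with exon 6. Amotl2 was 0.051 under TPM, 0.044 under median-ratio scaling and 0.10 under quantile scaling. As each library was left out, Cyr61 ran from -0.14 to 0.28, Tead2 from -0.016 to 0.095, Yap1 from -0.056 to 0.062, Amotl2 from -0.21 to 0.20 and Lats2 from -0.033 to 0.21. Between BME + COL and BME at day 1, Yap1 was -0.029 under TPM, Tead3 was 0.22 and Wtip 0.03 under quantile scaling, and Tead3 ran from -0.099 to 0.025 as each library was left out. The cause was not tested.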
